A study of Mus musculus with 7 samples.

Results

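Tyrosine tRNAs with the anticodon GTA were followed through 7 sequencing libraries of the mouse macrophage line RAW264.7 and of the extracellular vesicles (EVs) it releases. They were taken as every row of the count table whose name holds tRNA-Tyr-GTA. This gave 15 of 3894 rows that stand for whole RNAs: 10 unspliced rows, 1 for each gene name, and 5 rows of spliced tRNA. EV libraries came from cells with a hairpin against Dis3l2 (shDis3l2) that also carried Dis3l2 with the D389N change (D389N), a hairpin-resistant Dis3l2 (Dis3l2r) or an empty vector (Vector), from shDis3l2 cells with no transgene, and from cells with a non-silencing hairpin (shNS). Whole-cell libraries came from the shDis3l2 and shNS cells. Every line received 1 µg/mL doxycycline, and each of the 7 groups had 1 library. EVs were purified by their density in sucrose and then exposed to micrococcal nuclease. Per the labels, whole-cell RNA was depleted of rRNA, and no depletion is stated for EV RNA. The submitters call the D389N protein catalytically inactive. Neither Dis3l2 loss nor its re-expression could be read from rows without gene names.

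Tyrosine tRNA genes are among the few tRNA genes with an intron, which sits beside the anticodon. The intron is cut out during maturation, and the ligase Rtcb joins the exons. Mice with a kinase-dead Clp1, an RNA kinase linked to tRNA splicing, accumulate fragments of tyrosine pre-tRNA. Dis3l2 is a 3′ to 5′ exoribonuclease that degrades RNAs tailed with uridines by Tut4 and Tut7.

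The first number of a row name marks an isodecoder, the genes that give the same mature tRNA, and the second number marks the gene copy. Isodecoder 1 has 5 genes (tRNA-Tyr-GTA-1-1 to tRNA-Tyr-GTA-1-5), isodecoder 3 has 2, and isodecoders 2, 4 and 5 have 1 each, while each isodecoder has 1 spliced row. RefSeq's annotation of GRCm38.p6 lists 10 tyrosine GTA tRNA genes of 86 to 93 bp under other names, and these names are not paired with the rows here. Of these genes, 6 lie within 41520 bp of chromosome 13 (chr13:23425646-23467165), 2 on chromosome 3, and 1 each on chromosomes 5 and 14. None overlaps a protein-coding gene, whereas n-TYgta6 on chromosome 13 and n-TYgta9 on chromosome 5 lie within the bounds of the long noncoding RNA genes C230035I16Rik and Gm35795. Spliced and unspliced rows share their exons, so reads without intron or junction sequence match both. Their division between rows, and among copies of an isodecoder, is an estimate of the authors' counting and is uncertain for single rows.

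Counts on whole-RNA rows ran from 13439408 to 25177102 in EV libraries and came to 32342600 and 37041326 in shDis3l2 and shNS cells. CPM below is the count divided by this total and scaled to 1e+06. One noncoding transcript row held 46.1% of shDis3l2 cell counts and 19.3% of shNS cell counts, against 2.08% to 8.30% in EVs, so levels in cells depend on whether it is counted. Named tRNA rows made up 70.2% to 76.9% of EV counts, against 9.09% and 13.7% in shDis3l2 and shNS cells. With 1 library a group, intervals below (95%, exact) cover counting error only, and a difference between single libraries has no replicate check.

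Tyrosine tRNA was a small part of EV tRNA. All 15 rows together held 0.0599% of named tRNA counts in D389N EVs, 0.0716% in Dis3l2r EVs, 0.0984% in Vector EVs, 0.146% in shDis3l2 EVs and 0.127% in shNS EVs, against 1.82% in shDis3l2 cells and 1.097% in shNS cells. The EV and cell values did not overlap. Fewer vesicles or cells with this RNA and less of it in each cannot be told apart in bulk RNA. Among 51 anticodon families ranked by counts, tyrosine stood between places 43 and 46 in EVs, against place 19 in shDis3l2 cells and place 32 in shNS cells.

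Unspliced rows summed to 282 CPM in D389N EVs, 229 in Dis3l2r EVs, 324 in Vector EVs, 357 in shDis3l2 EVs and 235 in shNS EVs, against 631 CPM in shDis3l2 cells and 730 in shNS cells. Every EV library lay below both cell libraries. From low to high the order was Dis3l2r EVs, shNS EVs, D389N EVs, Vector EVs, shDis3l2 EVs, shDis3l2 cells and shNS cells. The counting intervals of the 2 lowest overlapped, at 221 to 238 CPM in Dis3l2r EVs and 229 to 241 CPM in shNS EVs, and those of the other neighbours did not.

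Spliced rows summed to 166 CPM in D389N EVs, 273 in Dis3l2r EVs, 433 in Vector EVs, 679 in shDis3l2 EVs and 719 in shNS EVs, against 1028 CPM in shDis3l2 cells and 776 in shNS cells. The EV libraries spread more here than for unspliced rows, with a mean of 454 ± 243 CPM (SD, n = 5) against 286 ± 55.4 CPM for the unspliced sum, and no intervals of neighbours overlapped. These 5 libraries are of different genotypes and not replicates. The 3 EV libraries of lines with a transgene or empty vector held the lowest spliced levels.

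**Figure D1:**
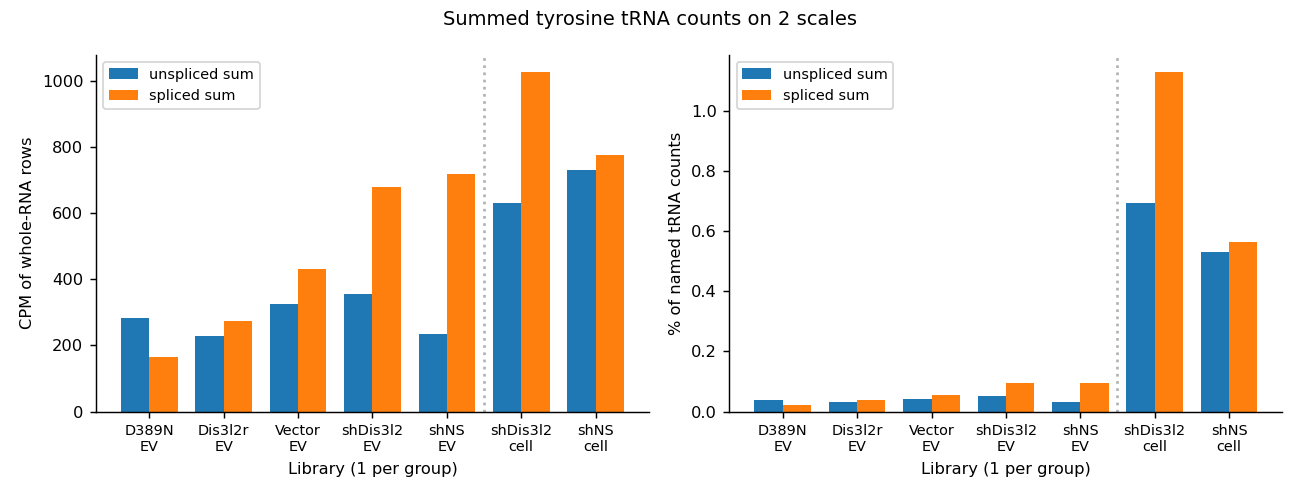
Summed unspliced (blue) and spliced (orange) tyrosine tRNA rows in each library, as CPM of whole-RNA rows (left) and as a percentage of named tRNA counts (right); each bar is 1 library, with EVs left of the dotted line. On the right, the EV bars stand at or below 0.0958% and the cell bars at or above 0.532%.

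The next comparison asked how vesicle and cell RNA differ. All 7 libraries were fitted together, 5 EV against 2 cell, by edgeR's quasi-likelihood test with Benjamini-Hochberg adjustment over all 642 rows tested. The class of active Dis3l2 given by the genotype (without it in shDis3l2, Vector and D389N, with it in shNS and Dis3l2r) was a covariate. Libraries of a compartment are different genotypes and not replicates. The p-values therefore rest on the spread among genotypes that the class term leaves. For each row, edgeR draws this spread towards that of all rows tested. Of the 15 tyrosine rows, 14 passed the filter on low counts. Among them 1 rose and 4 fell in EVs, where 31.2% and 47.7% of all rows tested were called higher and lower. The 14 rows had a median log2 fold change of -0.77. The median was 2.23 over 211 named tRNA rows, of which 149 rose and 9 fell, and -1.33 over all 642 rows. Tyrosine rows thus made up 4 of the 9 tRNA rows that fell.

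Unspliced tRNA-Tyr-GTA-4-1 fell furthest. It had 1.90 CPM in D389N EVs, 5.27 in Dis3l2r EVs, 4.59 in Vector EVs, 4.04 in shDis3l2 EVs and 3.84 in shNS EVs, against 40.2 CPM in shDis3l2 cells and 46.3 in shNS cells. Every EV library was thus far under both cell libraries, with a log2 fold change of -3.43 (SE 0.634, edgeR adjusted p = 0.000275, lower in 5 of 5 EV libraries).

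Unspliced tRNA-Tyr-GTA-3-2, the second gene of isodecoder 3, had 17.9 CPM in D389N EVs, 24.4 in Dis3l2r EVs, 28.1 in Vector EVs, 29.4 in shDis3l2 EVs and 22.3 in shNS EVs, against 167 CPM in shDis3l2 cells and 185 in shNS cells. The groups did not overlap, and it fell by 2.86 on the log2 scale (SE 0.470, edgeR adjusted p = 0.00011). The other gene of the isodecoder, tRNA-Tyr-GTA-3-1, had 29.3 to 71.6 CPM in EVs, against 67.4 CPM in shDis3l2 cells and 54.3 in shNS cells. Its groups overlapped and it was not called (-0.49, SE 0.526, edgeR adjusted p = 0.4).

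Isodecoder 1 showed the same unevenness between gene copies. Unspliced tRNA-Tyr-GTA-1-4 had 33.1 CPM in D389N EVs, 23.7 in Dis3l2r EVs, 38.2 in Vector EVs, 41.3 in shDis3l2 EVs and 19.4 in shNS EVs, against 205 CPM in shDis3l2 cells and 196 in shNS cells. It fell by 2.81 (log2, SE 0.464, edgeR adjusted p = 0.000113) with no overlap. tRNA-Tyr-GTA-1-5 ranged from 26.7 to 58.3 CPM in EVs, against 48.2 and 60.2 CPM in shDis3l2 and shNS cells, and was not called at -0.43 (SE 0.562, edgeR adjusted p = 0.484). The 3 other copies were scarce. tRNA-Tyr-GTA-1-1 and tRNA-Tyr-GTA-1-2 stood at -1.51 and -1.78 with edgeR adjusted p = 0.0693 and 0.0959, and tRNA-Tyr-GTA-1-3 at 0.07 with adjusted p = 0.943. The rows tRNA-Tyr-GTA-1-4, 3-2 and 4-1 were also called lower by edgeR with TMM scaling (trimmed mean of M values), by DESeq2 and with any single library left out. TMM called 26% of all rows higher and 49.5% lower, and DESeq2 38.9% and 43.8%. The share of all rows called with a library left out was not counted.

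Unspliced tRNA-Tyr-GTA-5-1 had higher values in EVs. It had 5.54 CPM in D389N EVs, 4.61 in Dis3l2r EVs, 3.10 in Vector EVs, 5.05 in shDis3l2 EVs and 3.85 in shNS EVs, against 0.309 CPM in shDis3l2 cells and 0.216 in shNS cells. These rest on 62 to 116 counts in EVs, against 10 and 8 counts in shDis3l2 and shNS cells. The row passed the filter on low counts through its EV libraries alone, so a higher value in EVs was favoured by that choice. It rose by 4.04 (log2, SE 1.12, edgeR adjusted p = 0.00521, higher in 5 of 5 EV libraries). Measured against the counts of all other tRNAs, its value was 1.29 and was not called (edgeR adjusted p = 0.265). Its spliced row had 1 count in shDis3l2 EVs and 0 in the other 6 libraries. A count of 0 allows a spliced share of up to 2.59% in D389N EVs, the deepest library for this gene, and of up to 37.5% in shNS cells, taken as 3 counts of the total; the exact 95% upper limits are 3.13% in D389N EVs and 36.9% in shNS cells.

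Unspliced tRNA-Tyr-GTA-2-1 was the largest unspliced row of every EV library. It had 149 CPM in D389N EVs, 102 in Dis3l2r EVs, 133 in Vector EVs, 137 in shDis3l2 EVs and 97.3 in shNS EVs, against 80.3 CPM in shDis3l2 cells and 160 in shNS cells. The cell libraries lay on either side of the EVs, and the fold change was 0.02 (SE 0.514, edgeR adjusted p = 0.966), but DESeq2 called it higher at 1.25 (adjusted p = 0.0319).

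Of the 4 spliced rows in the fit, all were below 0 and 1 fell. Spliced tRNA-Tyr-GTA-2-1 had 71.1 CPM in D389N EVs, 59.2 in Dis3l2r EVs, 122 in Vector EVs, 213 in shDis3l2 EVs and 174 in shNS EVs, against 444 CPM in shDis3l2 cells and 223 in shNS cells. The groups did not overlap, though shDis3l2 EVs came close to shNS cells, and the log2 fold change was -1.37 (SE 0.537, edgeR adjusted p = 0.0333). This call was lost without the Vector, Dis3l2r, D389N or shDis3l2 cell library, at an edgeR adjusted p of 0.0635, 0.0645, 0.0582 and 0.339. It was also lost with DESeq2, at -0.16, and in the 4 libraries of the shDis3l2 and shNS lines, fitted with the line as a term, at -0.71 (edgeR adjusted p = 0.242). Spliced tRNA-Tyr-GTA-3-1, -1-1 and -4-1 stood at -1.06, -0.35 and -0.29 with edgeR adjusted p = 0.11, 0.59 and 0.704, and DESeq2 put all 3 above 0.

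Of the 14 rows, 7 had every EV library below both cell libraries and 1 above, where 49.4% and 33% of all 642 rows did. As sums, unspliced tyrosine rows fell by 1.31 in EVs (log2, SE 0.404, edgeR adjusted p = 0.00994), while spliced rows stood at -0.99 (SE 0.545, adjusted p = 0.111). They were the lowest and the second lowest of 54 tRNA family sums in that fit, of which 44 rose and 3 fell; over all 485 rows and sums 19.6% were called higher and 61.4% lower. The other sums that fell were the unspliced rows of Leu-CAA (-0.99, SE 0.393, edgeR adjusted p = 0.0349) and Ile-TAT (-0.96, SE 0.410, adjusted p = 0.0467). A fit chosen after the data were seen took the counts of all other tRNAs as the library size, so that tyrosine was set against other tRNAs. In it the unspliced sum stood at -4.05 (SE 0.396, edgeR adjusted p = 2.52e-06) and the spliced sum at -3.79 (SE 0.583, adjusted p = 0.000108). These were again the lowest and second lowest of 54 sums, whose median was -0.17. Here 12 sums fell and 3 rose, where 70% and 3.44% of all 494 rows and sums did. In the like fit of single rows 13 of the 14 tyrosine rows fell and 0 rose, where 60.7% and 6.45% of 651 rows did.

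**Figure D2:**
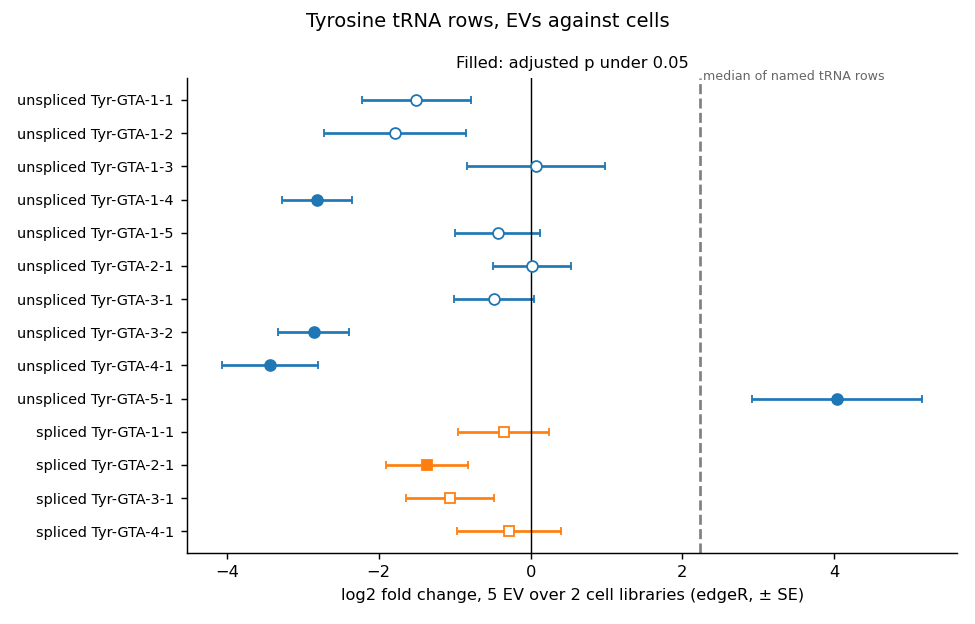
Log2 fold change of each tyrosine tRNA row, 5 EV over 2 cell libraries (edgeR), with a standard error derived from the F statistic of the test. Circles are unspliced and squares spliced rows, filled where the adjusted p is under 0.05. The 4 filled points left of 0 are unspliced 1-4, 3-2 and 4-1 and spliced 2-1, the filled point at 4.04 is unspliced 5-1, and the dashed line is the median of named tRNA rows at 2.23.

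Within each line, single libraries were compared by ratios of counts scaled to the whole-RNA totals. A row was called where its 2 libraries held 100 counts or more, differed 2-fold or more, and the interval of their ratio left out 1. In shDis3l2, EVs against cells, 1 of 14 tyrosine rows was higher and 5 lower, where 33.1% and 58.1% of all rows were. In shNS, 1 of 13 was higher and 5 lower, where 32% and 59.5% of all rows were. The row called higher was not the same in the lines. In shDis3l2 it was unspliced tRNA-Tyr-GTA-5-1 (4.03, 3.09 to 5.14), with 93 counts in EVs and 10 in cells. That row had a like value in shNS, at 4.15 (3.11 to 5.41). There its 91 and 8 counts fell just short of the minimum of 100, so it was not called. Most of its counts in both lines came from EVs. In shNS the row called higher was unspliced tRNA-Tyr-GTA-1-3 (1.05, 0.66 to 1.45), which stood at -0.24 in shDis3l2. Rows tRNA-Tyr-GTA-1-1, 1-4, 3-2 and 4-1 were lower in both lines, with tRNA-Tyr-GTA-1-4 at -2.31 (-2.42 to -2.20) in shDis3l2 and -3.34 (-3.48 to -3.20) in shNS. Unspliced rows summed to a log2 ratio of -0.82 (-0.86 to -0.78) in shDis3l2 and -1.63 (-1.68 to -1.59) in shNS, and spliced rows to -0.60 (-0.63 to -0.57) and -0.11 (-0.14 to -0.08). The unspliced sum in shNS passed the same rule, as did 7.55% of 53 tRNA family sums on the lower side and 83% on the higher. The unspliced sums of both lines stayed below 0 under each scaling tried. The spliced sum turned positive with DESeq2 size factors in both lines, at 0.12 in shDis3l2 and 0.99 in shNS, and with totals of all rows in shNS (0.15).

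The unspliced gene rows also made up the counts differently in EVs and cells. tRNA-Tyr-GTA-2-1 held 38.4% to 52.7% of unspliced tyrosine counts in EVs, against 12.7% in shDis3l2 cells and 21.9% in shNS cells. tRNA-Tyr-GTA-1-4 held 8.26% to 11.8% in EVs, against 32.5% in shDis3l2 cells and 26.9% in shNS cells, and tRNA-Tyr-GTA-3-2 held 6.33% to 10.6%, against 26.5% and 25.4%. None of these ranges overlapped. The ranges of tRNA-Tyr-GTA-1-3, 1-5, 3-1 and 5-1, higher in EVs, and of 4-1, lower in EVs, did not overlap either. How often gene shares part in this way in other tRNA families was not counted. By CPM, 49.4% of all 642 rows were lower and 33% higher in EVs without overlap, so such a parting is common here. Shares within a library are tied, so a lower share of some rows raises that of others. Among spliced counts, tRNA-Tyr-GTA-3-1 held 32.6% to 43.8% in EVs, against 41.3% in shDis3l2 cells and 44.9% in shNS cells. Spliced tRNA-Tyr-GTA-1-1 held 20.5% to 29.8% in EVs, against 13.2% in shDis3l2 cells and 22.6% in shNS cells. Spliced tRNA-Tyr-GTA-4-1 held 3.77% to 6.21% in EVs, against 2.37% and 3.69%, with no overlap. Spliced tRNA-Tyr-GTA-2-1 stood out in 2 libraries, at 42.8% in D389N EVs and 43.1% in shDis3l2 cells, against 21.7% to 31.3% in the other 5 libraries.

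**Figure D3:**
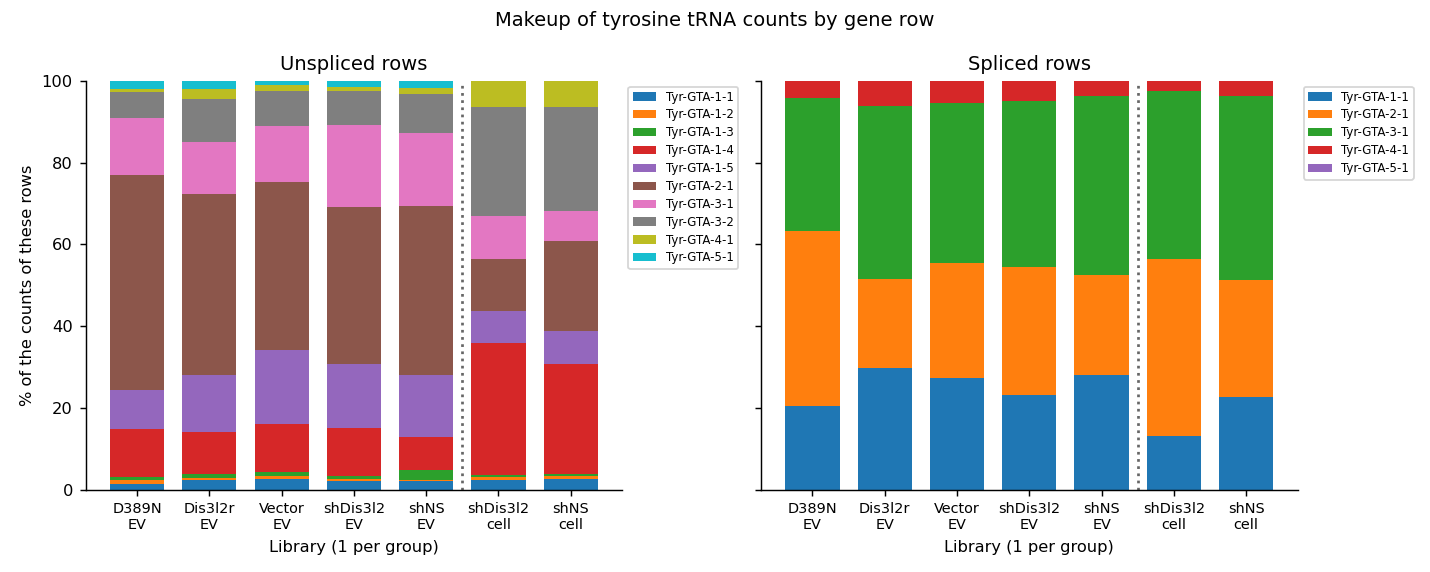
Share of each gene row in the unspliced (left) and spliced (right) tyrosine tRNA counts of each library, with EVs left of the dotted line. Unspliced 2-1 holds at least 38.4% in every EV library and at most 21.9% in cells, where 1-4 and 3-2 hold at least 25.4% each.

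The share of spliced rows in all tyrosine counts needs no scaling between libraries. It was 37.1% (36.1% to 38.04%) in D389N EVs, 54.4% (53.2% to 55.6%) in Dis3l2r EVs, 57.2% (56.5% to 57.9%) in Vector EVs, 65.6% (64.9% to 66.2%) in shDis3l2 EVs and 75.3% (74.8% to 75.9%) in shNS EVs. In cells it was 62.0% (61.6% to 62.4%) for shDis3l2 and 51.5% (51.1% to 51.9%) for shNS. The EV libraries lay on both sides of the cells. Means were 57.9% ± 14.2 in EVs (SD, n = 5) and 56.7% ± 7.41 in cells (n = 2), a difference of 1.15 percentage points (two-sided exact permutation p = 0.952, adjusted 1, where 0.0952 is the smallest the 21 splits allow).

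The isodecoders differed from each other in this share. For isodecoder 4 it was 76.3% to 89.1% in EVs, against 37.7% in shDis3l2 cells and 38.2% in shNS cells, with no overlap. The difference of 44.9 points had an exact permutation p of 0.0952, the smallest possible, and 0.214 after Benjamini-Hochberg adjustment over the 9 families and isodecoders compared. Isodecoder 1 had 33.1% to 75.5% in EVs, against 33.0% and 38.2% in shDis3l2 and shNS cells. Isodecoder 3 had 48.7% to 83.0%, against 64.4% and 59.3%. Isodecoder 2 had 32.3% to 64.2% in EVs, against 84.7% in shDis3l2 cells and 58.2% in shNS cells. For isodecoders 1, 2 and 3 the unadjusted exact permutation p was 0.19, 0.286 and 0.571 (adjusted 0.343, 0.429 and 0.735).

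The 3 other families with an intron gave other shares. Leu-CAA had 83.5% to 91.8% spliced counts in EVs, against 32.4% in shDis3l2 cells and 47.0% in shNS cells. Ile-TAT had 16.8% to 41.6%, against 10.2% and 14.0%. Arg-TCT had 93.7% to 97.4%, against 98.8% in both cell libraries. In each of these the EV and cell libraries did not overlap (exact permutation p = 0.0952, adjusted 0.214), while the tyrosine shares did.

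**Figure D4:**
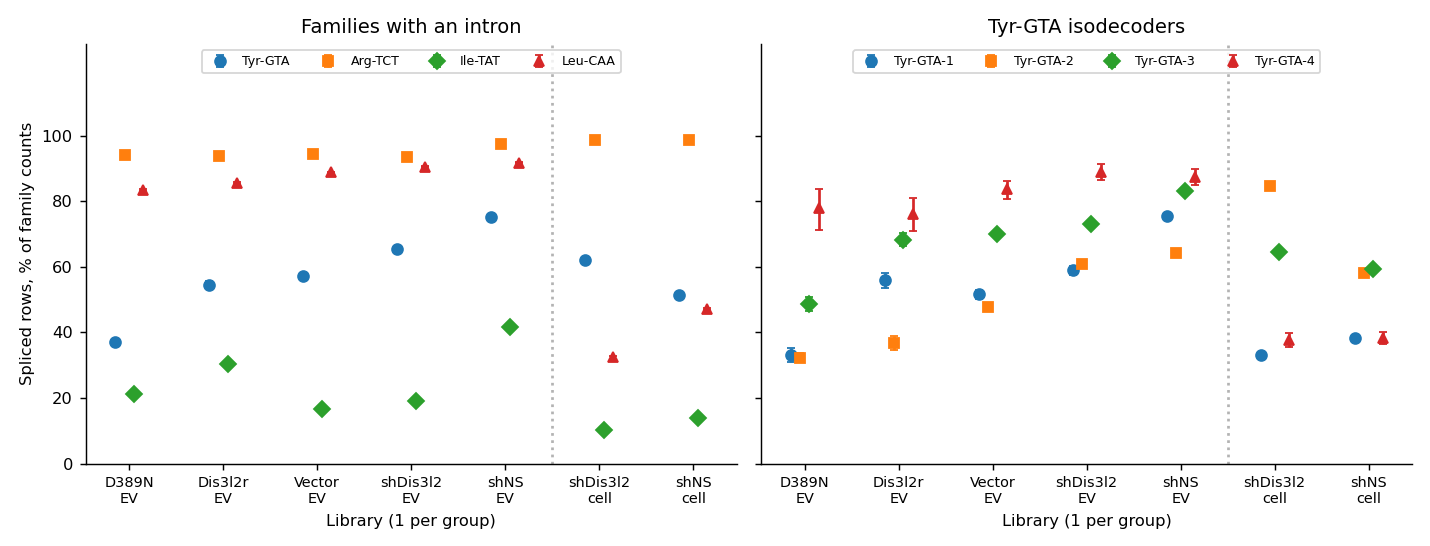
Spliced rows as a percentage of all counts of a family (left) or of a tyrosine isodecoder (right) in each library, with exact 95% counting intervals, mostly smaller than the symbols; EVs are left of the dotted line. Tyr-GTA runs from 37.1% to 75.3% among EVs, and isodecoder 4 lies at or above 76.3% in EVs and at or below 38.2% in cells.

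The hairpin against Dis3l2 was compared with shNS next, with TMM scaling between libraries of a compartment. In EVs, 1 of 13 tyrosine rows was higher with shDis3l2 than with shNS and 0 were lower, where 7.06% and 4.14% of 411 rows were. The row was unspliced tRNA-Tyr-GTA-1-4, with 762 counts in shDis3l2 EVs and 459 in shNS EVs (log2 ratio 1.19, 1.02 to 1.36). Of 9 unspliced rows 8 lay above 0, with a median of 0.59, against 0.05 over all 411 rows and -0.02 over 180 named tRNA rows. The exception was tRNA-Tyr-GTA-1-3 at -0.90 (-1.39 to -0.42), with 51 counts in shDis3l2 EVs and 130 in shNS EVs. The unspliced sum stood at 0.70 (0.64 to 0.75), place 51 from the lowest of 53 tRNA family sums. The sums above it were also unspliced rows of families with an intron, Ile-TAT at 1.11 and Arg-TCT at 1.04. Unspliced Leu-CAA stood at 0.21. A higher unspliced sum was thus not particular to tyrosine. The spliced tyrosine sum stood at 0.01 (-0.02 to 0.05), below 0 with 5 of 6 other scalings.

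In cells, spliced tRNA-Tyr-GTA-2-1 had 14344 counts in shDis3l2 cells and 8250 in shNS cells, a log2 ratio of 1.26 (1.22 to 1.30). It was the 1 tyrosine row of 13 past the rule, with 0 lower, where 11.7% of 513 rows were higher and 24% lower. With totals of whole-RNA rows or of all rows it no longer passed. Its unspliced partner tRNA-Tyr-GTA-2-1 had 2596 counts in shDis3l2 cells and 5920 in shNS cells (-0.73, -0.79 to -0.66). Isodecoder 3 stood at 0.55 (0.52 to 0.59) for its spliced row and 0.58 (0.49 to 0.67) for unspliced tRNA-Tyr-GTA-3-1. Its larger unspliced row, tRNA-Tyr-GTA-3-2, stood at only 0.12 (0.07 to 0.17), with 5411 counts in shDis3l2 cells and 6867 in shNS cells. Spliced tRNA-Tyr-GTA-1-1 and -4-1 stood at -0.10 and 0.03. The spliced sum stood at 0.67 (0.65 to 0.70) and the unspliced sum at 0.06 (0.03 to 0.08), which turned to -0.21 with totals. The median was 0.06 over the 13 tyrosine rows, against -0.17 over all rows and -0.42 over 165 tRNA rows. Exon-piece totals, which are 27300 counts in shNS cells and 555760 in shDis3l2 cells, shifted every log2 ratio of this pair by -4.81. The unspliced sum was then -4.75 and the spliced sum -4.14. With that shift 13 of 13 tyrosine rows were lower, and the share over all rows was not counted.

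The transgene lines were compared in EVs. With Dis3l2r against Vector, 1 of 12 tyrosine rows was lower and 0 higher, where 7.38% and 24.7% of 393 rows were. It was spliced tRNA-Tyr-GTA-2-1, with 796 counts in Dis3l2r EVs and 3081 in Vector EVs (-1.12, -1.23 to -1.003), a call lost when scaled to other tRNAs or without the most abundant cell transcript. The median over 12 tyrosine rows was -0.61, against 0.08 over all rows and -0.42 over 180 tRNA rows. Unspliced and spliced sums stood at -0.57 (-0.63 to -0.51) and -0.73 (-0.79 to -0.68), below 0 under each scaling tried.

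With D389N against the same Vector library, 4 of 14 rows were lower and 1 higher, where 12.4% and 10.8% of 379 rows were. Spliced tRNA-Tyr-GTA-1-1 had 713 counts in D389N EVs and 2968 in Vector EVs (-1.54, -1.66 to -1.42). Spliced tRNA-Tyr-GTA-3-1 stood at -1.38 (-1.48 to -1.29) and spliced tRNA-Tyr-GTA-4-1 at -1.56 (-1.84 to -1.29), while spliced tRNA-Tyr-GTA-2-1 stood at -0.53 (-0.62 to -0.44). The 2 other rows past the rule were scarce: unspliced tRNA-Tyr-GTA-4-1, with 40 counts in D389N EVs and 116 in Vector EVs (-1.02, -1.57 to -0.49), and unspliced tRNA-Tyr-GTA-5-1, with 116 and 78 (1.09, 0.67 to 1.52), whose call was lost with 5 of 6 other scalings. The spliced sum stood at -1.13 (-1.18 to -1.07), the second lowest of 53 family sums, of which 5.66% were lower and 7.55% higher by the same rule, and was lower under each scaling tried. The unspliced sum was near 0, at 0.05 (0.00 to 0.10), and negative with 5 of 6 other scalings.

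D389N set directly against Dis3l2r gave 3 of 12 rows lower and 0 higher, where 21.9% and 2.64% of 379 rows were. They were spliced tRNA-Tyr-GTA-1-1 at -1.03 (-1.16 to -0.89), spliced tRNA-Tyr-GTA-4-1 at -1.10 (-1.42 to -0.79) and unspliced tRNA-Tyr-GTA-4-1 at -1.24 (-1.83 to -0.66). Exon-piece totals shifted every log2 ratio of this pair by 0.56. With them 0 tyrosine rows were lower and 5 higher, and the share over all rows was not counted. The unspliced sum stood at 0.53 (0.47 to 0.59) and the spliced sum at -0.49 (-0.55 to -0.42), which was 0.073 with exon-piece totals. Vector against shDis3l2 EVs, which both carry the hairpin and no Dis3l2 transgene, gave 0 of 14 rows higher and 0 lower, where 8.91% and 15% of 393 rows were. Even so, the spliced sum stood at -0.62 (-0.65 to -0.58), the lowest of 53 family sums, and the unspliced sum at -0.10 (-0.15 to -0.06). The last 4 comparisons share libraries and are not independent of each other.

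Across the 5 EV libraries, those without active Dis3l2 by genotype (D389N, Vector and shDis3l2) were set against those with it (Dis3l2r and shNS) by edgeR. Of 14 tyrosine rows 0 were called, where 0% of 575 rows were called higher and 0.174% lower; 1 row had an unadjusted p under 0.05, as did 34 of all 575 rows and 6 of 210 tRNA rows, and DESeq2 also called 0. Scaled to other tRNAs, 0 tyrosine rows were called, where 0.175% of 573 rows were lower. The row under 0.05 was unspliced tRNA-Tyr-GTA-1-4, at 1.05 (SE 0.432, edgeR adjusted p = 0.669). It had 33.1, 38.2 and 41.3 CPM in D389N, Vector and shDis3l2 EVs, against 23.7 and 19.4 CPM in Dis3l2r and shNS EVs, with no overlap. Of 10 unspliced rows 8 were above 0, as were 170 of 210 tRNA rows and 314 of all 575 rows. The median was 0.65 over the unspliced rows and -0.06 over the 4 spliced rows, against 0.10 over all rows and 0.32 over 210 tRNA rows. In the fit of sums, which called 0.239% of 419 rows and sums lower and 0% higher, the unspliced sum stood at 0.76 (SE 0.353, edgeR adjusted p = 0.525) and the spliced sum at -0.03 (SE 0.540, adjusted p = 0.978). In that fit the unspliced sums of Ile-TAT, Arg-TCT and Leu-CAA stood at 1.00, 0.75 and 0.66 (edgeR adjusted p = 0.525, 0.525 and 0.532). The spliced share of tyrosine counts averaged 53.3% ± 14.6 without active Dis3l2 (SD, n = 3) and 64.9% ± 14.8 with it (n = 2). The exact permutation p was 0.6 (adjusted 0.9), where 0.2 is the smallest possible.

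**Figure D5:**
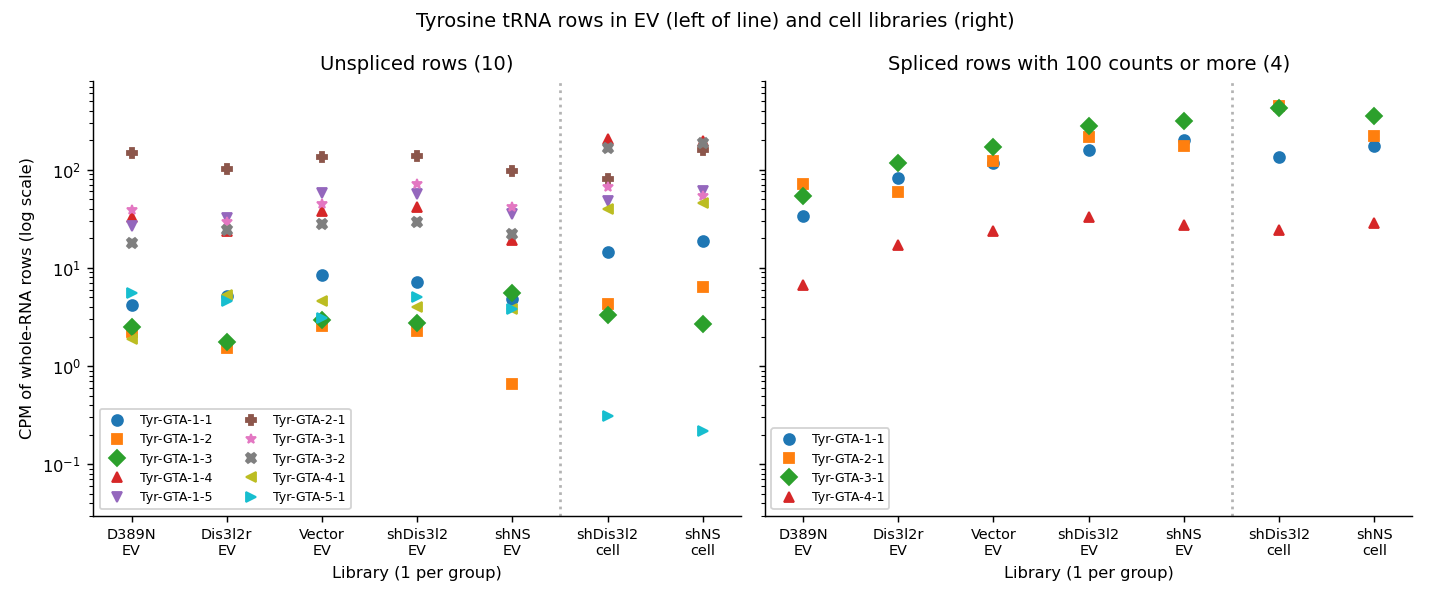
CPM of each tyrosine tRNA row in each library on a log axis, with unspliced rows on the left and spliced rows on the right; each point is 1 library, and EVs are left of the dotted line. Unspliced 1-4, 3-2 and 4-1 are lower in all EV libraries than in cells, 5-1 is higher, and the spliced rows are lowest in D389N EVs except 2-1, which is lowest in Dis3l2r EVs.

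The families whose levels over the 7 libraries were most like tyrosine were found by the root mean square difference of log2 CPM, each family centred on its own mean. Among 53 other sums, unspliced tyrosine was closest to unspliced Ile-TAT (0.25), unspliced Leu-CAA (0.32) and Gly-ACC (0.34), where the median over all sums was 1.77. Spliced tyrosine had no match as close: the nearest were unspliced Ile-TAT (0.65), unspliced tyrosine itself (0.69) and Ala-TGC (0.73), where the median was 1.85. Other genes of the pathway, 24 in the list, were not analysed here, since 0 of 3639 transcript rows could be paired with a gene name. The marker genes of macrophages and other cells could not be read for the same reason.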

How the data were processed

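RNA of 2 cell and 5 EV libraries was read by template switching with a group II intron type reverse transcriptase, per the labels' protocols. Estimated counts for all 7 libraries stand in the single table the authors deposited, without scaling. The tools named per the submitters' processing notes are Novoalign, Salmon, cutadapt and UMI-tools, and the builds mm10 and GRCm38. Their order and versions: not given in the sources used here. Of all rows, the 3894 whole-RNA ones of 580839 were used, and exon, intron and UTR pieces only for totals. Counts were rounded for intervals (exact binomial or Poisson, 95%) and fits. Fits used edgeR 4.0.16 with filterByExpr and an adjusted p threshold of 0.05, with DESeq2 1.42.0 as an alternative (R 4.3.3, Python 3.11.15, scipy 1.17.1). The edgeR fits were tried on simulated counts whose library totals stayed comparable. That trial cannot check the scaling between EVs and cells. EV against cell comparisons used whole-RNA totals and the others TMM. Residual degrees of freedom were 4 and 3. SE values of edgeR fits are the absolute log2 fold change divided by the square root of the test's F statistic. Other scalings, count minimums, covariates and left-out libraries were tried. Labels name no separate cultures. Dis3l2 class was assigned from the genotype. Every tyrosine row with at least 100 counts over all libraries was named by rule. The members, lists and tests were chosen with earlier results of these data known.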

Additional observations from a re-analysis of the deposited data

Results flagged for a closer look

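Unspliced tRNA-Tyr-GTA-2-1 moved in opposite directions in the 2 lines, a difference between groups that was not tested, since each side has 1 library. EVs against cells gave a log2 ratio of 0.77 (0.69 to 0.85) in shDis3l2 and -0.72 (-0.79 to -0.65) in shNS. Set by compartment, shDis3l2 against shNS gave 0.59 (0.51 to 0.67) in EVs and -0.73 (-0.79 to -0.66) in cells; these are the same 4 libraries, so both pairs show one pattern. The directions between EVs and cells depend on the scaling. With DESeq2 size factors they were 1.49 in shDis3l2 and 0.38 in shNS, without the most abundant cell transcript -0.069 in shDis3l2 and -0.95 in shNS, and with totals of other tRNAs -2.22 in shDis3l2 and -3.18 in shNS. The signs of shDis3l2 against shNS stayed opposite in EVs and cells under each scaling run. The spliced row of the same isodecoder was higher in shDis3l2 cells, and the estimated division of reads between the rows was not tested as a cause.

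Unspliced tRNA-Tyr-GTA-1-3, for shDis3l2 against shNS, stood at -0.90 (-1.39 to -0.42) in EVs and 0.58 (0.17 to 0.99) in cells, again untested. With exon-piece totals both were negative, at -0.93 in EVs and -4.23 in cells. It rests on 51 and 130 counts in shDis3l2 and shNS EVs and on 106 and 98 counts in shDis3l2 and shNS cells.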

How the results depend on the processing

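No paired analysis was possible by replicate number, because each group has 1 library and the labels give no such numbers. EVs and cells could be paired by line in the 4 shDis3l2 and shNS libraries, with 1 residual degree of freedom. Unspliced tRNA-Tyr-GTA-1-4, 3-2 and 4-1 then stood at -2.82, -2.78 and -3.45 (log2), and the call of spliced tRNA-Tyr-GTA-2-1 was lost. Unspliced tRNA-Tyr-GTA-5-1, with only 10 and 8 counts in shDis3l2 and shNS cells, stood at 4.07. The share of all rows called in that fit, or in the fits with 1 library left out, was not counted. Values are log2 ratios of the unspliced or spliced sum, or numbers of tyrosine rows past the rule, and causes of changes were not tested. For pairs of libraries, the share of all rows past the rule was counted under the main scaling and count minimum only. Against whole-RNA totals, DESeq2 size factors shifted every EV to cell log2 ratio by 0.72 in shDis3l2 and 1.10 in shNS, and totals of other tRNAs by -2.99 in shDis3l2 and -2.47 in shNS. EVs against cells in shNS: the unspliced sum was -0.54 with DESeq2 size factors, and these put the spliced sum at 0.99. It was 0.15 with totals of all rows, -2.57 with totals of other tRNAs and -4.59 with exon-piece totals. Rows called higher were 0 with TMM, other tRNAs or totals that leave out the most abundant cell transcript, or at a minimum of 500 counts, 3 with DESeq2 size factors and 2 at a minimum of 20. Rows called lower were 13 with other tRNAs, where tRNA-Tyr-GTA-1-3 turned to -1.41. EVs against cells in shDis3l2: unspliced and spliced sums were -1.30 and -1.08 with TMM, -3.81 and -3.59 with other tRNAs, and -1.66 and -1.44 once the most abundant cell transcript was left out, and the spliced sum was 0.12 with DESeq2 size factors. Rows called higher were 3 with DESeq2 size factors, 2 with totals of all rows and 0 at 500 counts. Rows called lower were 3 with DESeq2 size factors and 3 with totals of all rows, 8 without the most abundant cell transcript and 13 with other tRNAs. In the fit over all libraries, 7 rows were lower with TMM and 13 with other tRNAs, which left 0 higher, put tRNA-Tyr-GTA-1-3 at -2.74 and tRNA-Tyr-GTA-2-1 at -2.68, and called the spliced sum at -3.79. DESeq2 called 2 rows higher. Leaving out each library gave 1 row higher and 3 to 5 lower.

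Knockdown in cells: the unspliced sum was -0.21 with totals, -0.29 with totals of all rows and -4.75 with exon-piece totals, and the spliced sum 1.01 with other tRNAs and -4.14 with exon-piece totals. Rows called higher were 0 with totals or totals of all rows, and 1 was lower with the last and 13 with exon-piece totals. Knockdown in EVs: the spliced sum was -0.081 with totals, -0.060 with DESeq2 size factors, -0.14 with totals of all rows, -0.11 without the most abundant cell transcript and -0.018 with exon-piece totals; 1 row was lower with totals of all rows or without that transcript, and 2 were higher at 20 counts. Dis3l2r against Vector: rows called lower were 2 with DESeq2 size factors or totals of all rows and 0 with other tRNAs or without that transcript, and exon-piece totals gave -1.46 (unspliced) and -1.62 (spliced). D389N against Vector: the unspliced sum was -0.20 with totals, -0.26 with totals of all rows, -0.18 without that transcript, -0.16 with other tRNAs and -0.37 with exon-piece totals, and rows called higher were 0 with each of these and at 500 counts. Rows called lower were 6 with totals, totals of all rows or exon-piece totals, and 5 with other tRNAs or without that transcript. D389N against Dis3l2r: 1 row was lower with DESeq2 size factors or at 500 counts, and exon-piece totals left 0 lower, 5 higher and gave 1.09 (unspliced) and 0.073 (spliced). Vector against shDis3l2: the unspliced sum was 0.028 (DESeq2 size factors) and 0.29 (exon-piece totals). In the fit on Dis3l2 class 0 tyrosine rows were called under any setting run, with or without each library.

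The spliced share, EVs minus cells, was -11.1 points with unspliced tRNA-Tyr-GTA-1-2 to 1-5 and 3-2 left out but all spliced counts kept. As the spliced rows stand for whole isodecoders, that is no share of matched counts, and it drops rows that are large in cells. The share difference over all rows ran from -4.09 to 6.39 with 1 library left out, and without against with active Dis3l2 from -22.1 to -1.096. Of the results that answer a comparison, 199 alternative values kept direction and call, 24 reversed, 29 gained a call or count and 20 lost one. A modest change in a count of rows was taken as kept, such as from 4 to 6 rows lower in D389N against Vector with totals. The totals of exon pieces were not run in the fits, and rows with under 100 counts in a pair were not called in it.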
